A study of Mus musculus with 2207 samples.

Results

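The genes described here were 7 feedback and target genes of the receptor tyrosine kinase and ERK pathway, Spry1, Spry2, Spry4, Spred1, Spred2, Dusp6 and Etv5, together with the growth factor gene Pdgfc. These 8 genes were taken by symbol from the 52636 genes of the RPKM tables, where all 8 were found. They were selected on RPKM levels of these same nuclei, in oligodendrocytes and other cell types of each pool, and which contrast guided the choice was not recorded. Hence every difference between genotypes or between cell types is given for them as a description without a test. For these 8 genes tests are kept to the neuron classes, and they rest on nuclei that the choice may have used. RNA of 2207 single cortical nuclei was measured by RamDA-seq, a total RNA method. The nuclei came from male C57BL/6 mice, 14 weeks of age, given tamoxifen (100 mg/kg) 2 times from the age of 3 weeks onward. They formed 6 pools of 3 mice of one genotype each; the labels do not say from which animal a nucleus came, and each pool therefore counted as 1 sample. Ehmt1 encodes GLP, a histone H3K9 methyltransferase.

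A first pair of pools, wild type (WT, Ehmt1+/+) and Ehmt1Δ/+, was sorted into 96-well plates. A further pair, sorted into 384-well plates, was Ehmt1+/+ and Ehmt1Δ/+ with the inducible transgene Ehmt1 iTg but, by the labels, without CamKII-CreER. The study's text names the mice of this experiment as carrying CamKII-CreER, and the labels are followed here. The last pair, Ehmt1 iTg and Ehmt1Δ/+; Ehmt1 iTg, also in 384-well plates, carried CamKII-CreER, which drives Cre in forebrain neurons and there switches on FLAG-tagged GLP from the transgene after tamoxifen. Hence oligodendrocytes and microglia of the last pair differ by label in the Ehmt1 allele, whereas its neurons also express the transgene. In the order of these 6 pools there were 73, 71, 69, 46, 71 and 67 nuclei labelled oligodendrocyte and 36, 32, 16, 19, 20 and 23 labelled microglia, and the other 1664 nuclei were labelled neuron.

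Several facts of the whole series bear on the values below. Ehmt1 RNA was higher, not lower, in each pool labelled Ehmt1Δ/+ than in its partner: in neurons the mean was 18.7 against 31.2 RPKM in the 96-well plates, 19.5 against 31.7 in the 384-well plates and 20.7 against 33.9 with Cre. Every direction given here therefore rests on the labels of the pools. Median reads per nucleus, recovered from the steps of the RPKM values, were 441701 and 478605 in 96-well oligodendrocytes but 49635 to 54877 in 384-well ones, while neurons had 323273 to 397880 in all pools. In the 384-well plates WT nuclei carried a plate code of their own, so that this genotype difference and the code cannot be told apart; the other 3 pools of that format shared 1 code. Of 1219 names made of a code and a well, 641 occurred in more than 1 pool, and 0 pairs of such nuclei had identical values. Nuclei labelled oligodendrocyte held the summed level of 8 oligodendrocyte markers at 3180 to 5102 RPKM against 9.53 to 17.5 RPKM in neurons, and 8 of 8 were above 0 in every pool. However, 2 nuclei labelled neuron in the 96-well Ehmt1Δ/+ pool had Pdgfra, the defining receptor of oligodendrocyte precursors, above 100 RPKM and go against their label.

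Growth factors such as PDGF bind receptor tyrosine kinases, which signal through Ras, Raf, MEK and ERK. ERK activity induces genes whose products act back on the pathway: Sprouty proteins (Spry1, Spry2, Spry4) and the related Spred proteins (Spred1, Spred2) restrain the step from receptor to Raf, and Dusp6 is a phosphatase that removes the activating phosphates from ERK. Etv5 is an ETS transcription factor downstream of FGF and ERK signals. Pdgfc encodes PDGF-C, a secreted ligand of PDGF receptors, and PDGF receptor alpha is best known in this tissue for driving the expansion of oligodendrocyte precursors.

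In mm10, as annotated in GENCODE M21, Spry1 lies on chromosome 3 from 37639947 to 37644598 and Pdgfc on the same chromosome from 81036416 to 81214040, both on the plus strand. Spred1 lies on chromosome 2 from 117121374 to 117182279, Spred2 on chromosome 11 from 19924375 to 20024026 and Dusp6 on chromosome 10 from 99263231 to 99267489, all on the plus strand. Etv5 lies on chromosome 16 from 22381309 to 22439719 and Spry2 on chromosome 14 from 105891947 to 105896819, both on the minus strand.

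The genes also differ in the sequence before their start. The 250 bases upstream of the RefSeq start (GRCm38.p6, the build mm10) are printed for Pdgfc, for Spry2 and for Dusp6 because these 3 carry the contrasts between cell types described below and because their RefSeq start abuts the gene as annotated in GENCODE M21. The windows lie at chr3:81036166-81036415 on the plus strand, chr14:105896820-105897069 on the minus strand and chr10:99262981-99263230 on the plus strand, and capitals mark CG dinucleotides.
Pdgfc: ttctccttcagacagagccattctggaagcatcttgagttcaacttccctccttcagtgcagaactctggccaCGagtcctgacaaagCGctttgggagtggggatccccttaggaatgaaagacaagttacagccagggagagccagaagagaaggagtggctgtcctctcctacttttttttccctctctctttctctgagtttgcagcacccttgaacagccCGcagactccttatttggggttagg
Spry2: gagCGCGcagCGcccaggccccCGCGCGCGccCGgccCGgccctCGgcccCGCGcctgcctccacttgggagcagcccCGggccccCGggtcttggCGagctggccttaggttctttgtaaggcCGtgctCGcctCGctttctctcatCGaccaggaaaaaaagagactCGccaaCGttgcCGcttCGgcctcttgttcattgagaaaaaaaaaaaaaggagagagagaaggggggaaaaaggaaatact
Dusp6: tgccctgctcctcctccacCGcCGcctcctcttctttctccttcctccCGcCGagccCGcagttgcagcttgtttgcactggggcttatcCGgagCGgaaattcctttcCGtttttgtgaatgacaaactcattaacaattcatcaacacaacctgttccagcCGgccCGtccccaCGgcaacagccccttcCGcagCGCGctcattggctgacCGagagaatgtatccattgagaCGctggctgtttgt

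The Pdgfc window held 3 CG dinucleotides, Spry2 23 and Dusp6 16. Over the 32851 RefSeq windows of the same length the median was 6, so Pdgfc lay below it and the other two above. The windows of Spry1, Spred1, Spred2 and the outer start of Etv5 held 23, 31, 12 and 27. Searched on both strands, the ETS motif CCGGAA (held by 12.03% of all windows), the cAMP response element TGACGTCA (1.55%) and the AP-1 motif TGAGTCA (4.46%) had 0 matches in the windows of these 7 genes, with both starts of Etv5 counted. The Sp1 motif GGGCGG, held by 32.7% of all windows, occurred 3 times before the outer start of Etv5, 2 times before Spred1, 1 time each before Spry1 and Spred2 and 0 times in the 3 printed windows.

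The 8 genes differed widely in where they were expressed. Levels are given as the mean RPKM over the nuclei of a pool, which is per length and so can be compared between genes, although the 96-well and 384-well tables were normalized separately. Dusp6 was a microglial gene in these samples, at 79.01, 102.4, 73.7, 41.6, 48.99 and 60.4 RPKM in the 6 pools of microglia, whereas neurons ranged from 3.60 to 10 RPKM and oligodendrocytes from 0 to 1.39 RPKM. No pool of microglia overlapped with any pool of the other cell types. In limma on the 18 pool means, with the pool as a block, the microglia minus neuron difference of Dusp6 was 3.11 on the log2 scale (SE 0.60) and its oligodendrocyte minus microglia difference -7.53 (SE 0.60). Here and below, log2 differences are of log2(mean RPKM + 0.1), a scale that understates changes of low genes.

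Spry2 was highest in neurons and lowest in microglia. It reached 12.1, 13.02, 15.7, 17.3, 17.9 and 17.6 RPKM in neurons, 1.40 to 11.3 RPKM in oligodendrocytes, and in microglia 2.91 and 0.859 RPKM in the 96-well plates and 0 in all 4 pools of the 384-well plates. With 0 of 16 to 23 nuclei positive in those pools, shares of up to 13.04% to 18.8% could not be seen. Its oligodendrocyte minus microglia difference was 4.16 (SE 0.79) and its microglia minus neuron difference -5.92 (SE 0.79). The oligodendrocyte minus neuron difference was -1.76 (SE 0.79), or -4.32 with log2 values averaged per nucleus.

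Etv5 was high in both neurons and microglia and low in oligodendrocytes. Its neuron means were 20.5, 25.02, 18.8, 27.6, 24.1 and 29.2 RPKM, its microglia means 21.8, 23.7, 23.04, 32.7, 5.91 and 13.4 RPKM, and its oligodendrocyte means 3.82, 0.797, 0.705, 1.58, 0.824 and 1.39 RPKM. The highest oligodendrocyte pool thus lay below the lowest pool of either other type. The log2 difference was -4.13 (SE 0.38) for oligodendrocytes minus neurons and -0.43 (SE 0.38) for microglia minus neurons, whose pool means overlapped. Part of its signal was counted as fractions of a read, in 44.8% of the nuclei with a value above 0, against 0% for Spry2, Spry4 and Dusp6; for Spred2 this share was 31.3% and for Pdgfc 22.3%.

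Spred2 was mainly neuronal, at 12.9 to 19.7 RPKM in neurons, 3.58 to 12.2 in microglia and 1.38 to 3.28 in oligodendrocytes. Its oligodendrocyte minus neuron difference was -2.94 (SE 0.31) and its microglia minus neuron difference -1.49 (SE 0.31), or -0.43 with each pool mean centred on the level of its own median gene. Spry4 was low everywhere: 1.82 to 2.94 RPKM in neurons, 0 to 0.784 in oligodendrocytes, where 0 to 2 nuclei a pool were positive, and 0 to 0.0492 in microglia. Its oligodendrocyte minus neuron difference was -3.12 (SE 0.39). Spry1 was the only Sprouty gene with a higher mean in microglia than in neurons in most pools (0.152 to 5.41 against 0.731 to 1.75 RPKM), with a difference of 0.62 (SE 0.66).

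Pdgfc was detected in oligodendrocytes and neurons and was almost absent from microglia. It was above 0 in 1 nucleus of the 6 pools of microglia, and its microglia minus neuron difference was -3.48 (SE 0.41). The oligodendrocyte minus neuron difference over all pools was -0.00 (SE 0.41), or -0.59 with log2 values averaged per nucleus. That mean over pools hides the pattern described below, since the 3 pools labelled Ehmt1Δ/+ had more Pdgfc in oligodendrocytes than in neurons and the other 3 pools less. Spred1 was the most even of the genes across cell types; its oligodendrocyte minus neuron difference was -0.71 (SE 0.20).

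**Figure D1:**
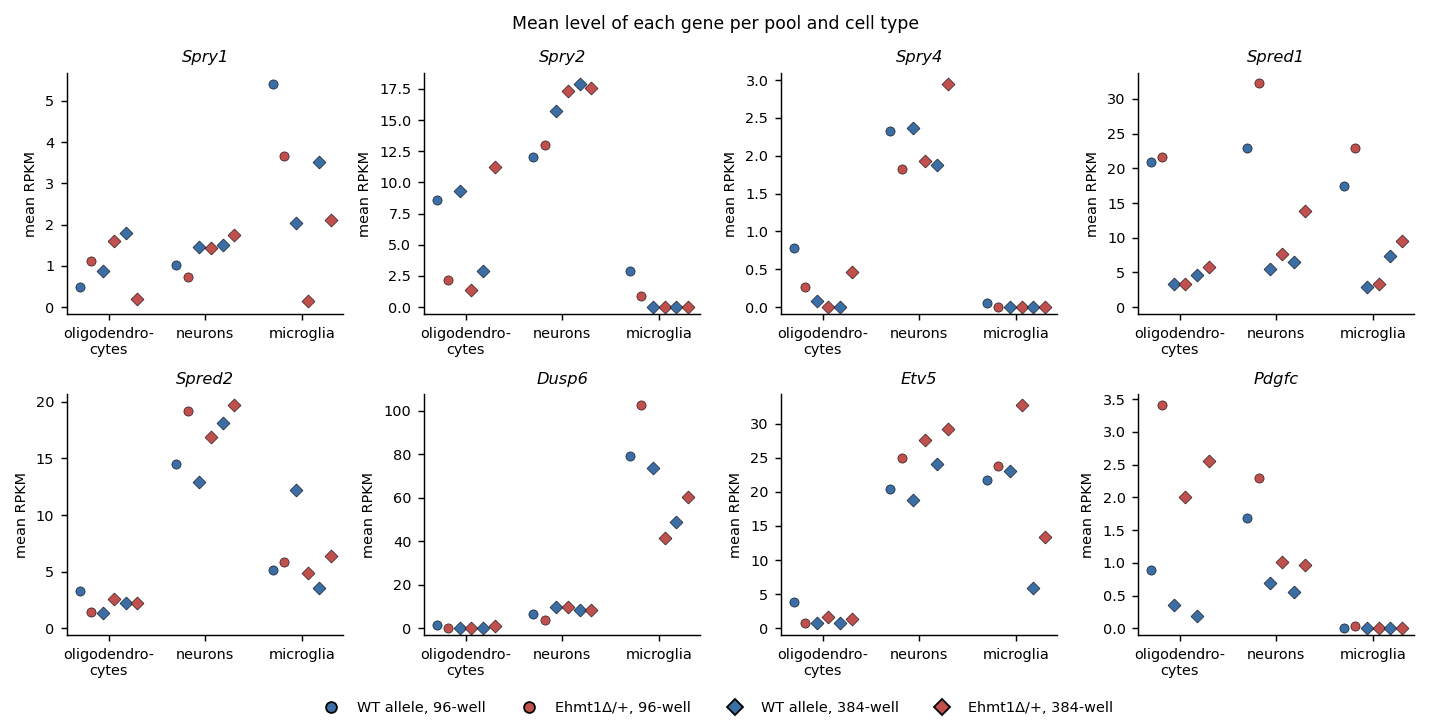
Mean RPKM of the 8 genes (vertical axis, 1 panel a gene) in oligodendrocytes, neurons and microglia (horizontal axis), 1 point a pool, circles for 96-well and diamonds for 384-well plates, with the pools of each cell type drawn left to right as WT, Ehmt1Δ/+, WT, Ehmt1Δ/+, Ehmt1 iTg and Ehmt1Δ/+; Ehmt1 iTg (WT allele in blue, label Ehmt1Δ/+ in red). Dusp6 stands at 41.6 RPKM or more in microglia and at 10 or less elsewhere, Spry2, Spry4 and Spred2 are highest in neurons in every pool, and Pdgfc in oligodendrocytes is higher in all 3 red pools than in the blue ones.

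The median difference over all genes tested was -0.61 for oligodendrocytes minus neurons and -0.84 for microglia minus neurons. With each pool mean centred on the level of its own median gene, the Spred1 differences turned to 0.25 and 0.51, that of Etv5 in microglia minus neurons to 0.63, and those of Spry1 and Pdgfc in oligodendrocytes minus neurons to 0.41 and 0.96.

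In neurons the genes separated excitatory from inhibitory nuclei. A nucleus was called excitatory where its value of Slc17a7, the vesicular glutamate transporter, exceeded that of Gad1, which makes GABA, and inhibitory in the opposite case, giving 43 to 73 inhibitory nuclei a pool and more excitatory ones. Of the 8 genes, 6 were higher in excitatory neurons and 1 was lower; of the 25936 genes tested 40.1% differed, 4930 of them higher and 5460 lower. Etv5 was the clearest: its excitatory means were 23.3, 27.5, 21.7, 30.6, 25.9 and 32.6 RPKM and its inhibitory means 11.6, 13.5, 10.7, 13.5, 16.6 and 13.4 RPKM, which do not overlap. The log2 difference was 1.02 (SE 0.10, adjusted p = 0.00024, limma with the pool as a block). Pdgfc had the greatest difference, 1.68 (SE 0.30, adjusted p = 0.0044), with excitatory means of 0.599 to 2.61 RPKM and inhibitory means of 0.0959 to 0.916 RPKM, higher in excitatory nuclei in 6 of 6 pools.

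The Sprouty genes did not share this preference. Spry2 was higher in excitatory neurons by 0.62 (SE 0.10, adjusted p = 0.0029), with 13.8 to 19.02 RPKM against 6.38 to 13.8 RPKM. Spry4 was lower in them (-1.28, SE 0.26, adjusted p = 0.0077): inhibitory means were 4.38, 6.27, 3.41, 3.53, 3.94 and 3.86 RPKM and excitatory means 1.66, 0.965, 2.02, 1.60, 1.38 and 2.74 RPKM, again without overlap. Spry1 showed no difference that passed (-0.52, SE 0.25, adjusted p = 0.15). Dusp6 (1.045, SE 0.23, adjusted p = 0.011), Spred2 (0.74, SE 0.10, adjusted p = 0.0013) and Spred1 (0.70, SE 0.08, adjusted p = 0.00060) were each higher in excitatory nuclei.

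**Figure D2:**
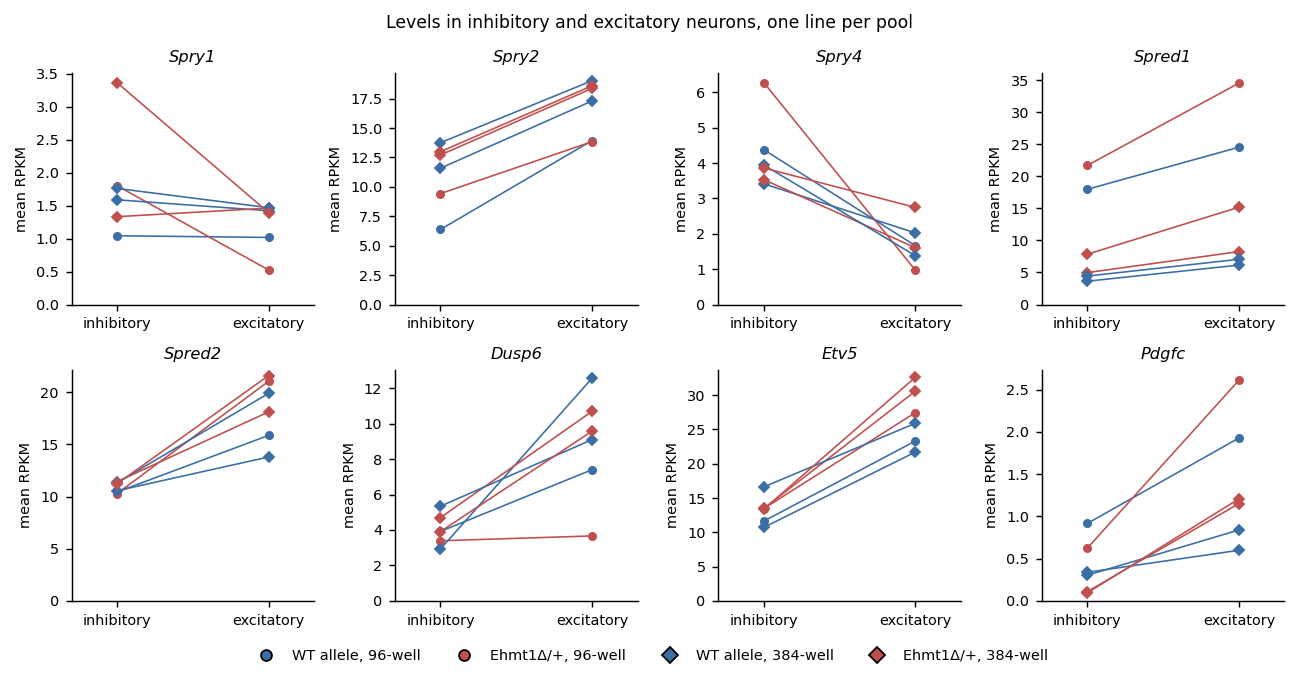
Mean RPKM (vertical axis) of each gene in inhibitory and excitatory neurons (horizontal axis), 1 line a pool, with circles for 96-well and diamonds for 384-well plates, blue for the WT allele and red for pools labelled Ehmt1Δ/+. For Etv5, Spred1, Spred2, Spry2, Dusp6 and Pdgfc every line rises from inhibitory to excitatory nuclei, and for Spry4 every line falls.

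Among oligodendrocytes, Pdgfc was higher in the pool labelled Ehmt1Δ/+ in each of the 3 pairs. In the 96-well plates its mean was 0.893 RPKM in WT and 3.40 RPKM in Ehmt1Δ/+, a 3.81-fold difference. In the 384-well plates without Cre it was 0.354 and 2.01 RPKM, 5.67-fold, and with Cre 0.193 RPKM in Ehmt1 iTg and 2.56 RPKM in Ehmt1Δ/+; Ehmt1 iTg, 13.3-fold. The 3 pools labelled Ehmt1Δ/+ therefore all lay above the other 3. Of 12093 genes with enough positive nuclei in every pair, 2.52% had the 3 labelled pools above the others and 0.323% were over 2-fold higher in all 3 pairs. Pdgfc was selected on these levels and reached the required 10% of positive nuclei in the 384-well pairs only through the labelled pools, so nothing is read from these shares.

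In the first and last pairs the difference lay in the number of positive nuclei and in the level of each. In the second pair both pools had 5 positive nuclei, and the difference lay mainly in their level. In the 96-well plates 11 of 73 WT nuclei (15.1%, exact 95% interval 7.77 to 25.4%) and 24 of 71 Ehmt1Δ/+ nuclei (33.8%, 22.997 to 46.01%) had Pdgfc reads; in the 384-well plates these were 5 of 69 (7.25%, 2.39 to 16.1%) and 5 of 46 (10.9%, 3.62 to 23.6%), and with Cre 3 of 71 (4.23%, 0.880 to 11.9%) and 15 of 67 (22.4%, 13.1 to 34.2%). The intervals, which cover counting error among nuclei only, overlapped in the first and second pairs. Within positive nuclei the mean was 5.93 against 10.1 RPKM, 4.89 against 18.5 and 4.57 against 11.4. Thinned to 33134 reads a nucleus, the expected shares were 6.85% against 20.5%, 4.52% against 10.3% and 2.86% against 21.04%. Without the highest nucleus of each pool the means were 0.636 against 3.02, 0.262 against 1.36 and 0.115 against 2.11 RPKM.

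The 384-well values rest on few reads: 6 and 24 in all oligodendrocytes without Cre and 6.5 and 53.5 with Cre, where the 96-well Ehmt1Δ/+ pool had 585. Within the plate codes that both 96-well pools shared, Pdgfc was 1.17 against 6.51 RPKM in the first and 0.409 against 4.03 in the second. In the last it was 1.47 against 1.44, so 2 of 3 shared codes carried the difference. The code found only in the Ehmt1Δ/+ pool had 1.14 RPKM (5 of 20 nuclei positive). The code found only in the WT pool had 0.272 RPKM (3 of 14). The levels of other cells' markers in the oligodendrocyte nuclei are given beside the Pdgfc values, and their part in the result was not tested. The 8 markers of precursors and new oligodendrocytes summed to 21.6 against 22.7, 16.3 against 18.8 and 21.2 against 19.2 RPKM in the 3 pairs, with C1ql1 at 0 in every pool and Pdgfra at most at 0.185 RPKM. The 7 astrocyte markers summed to 30.01 against 17.1, 13.96 against 15.6 and 15.2 against 16.3 RPKM. In the 4 meningeal fibroblast markers the ranges were 0.0125 to 0.139 and 0 to 0.0344 RPKM, with Dcn and Lum at 0 in all pools. The 8 endothelial and mural markers reached 0.176 to 1.28 and 0.184 to 0.645 RPKM.

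**Figure D3:**
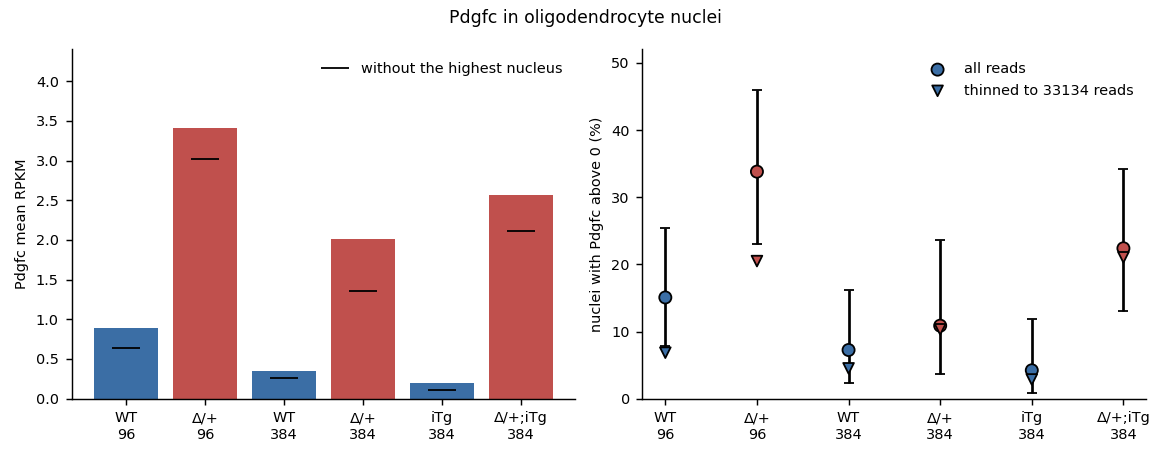
Pdgfc in oligodendrocyte nuclei of the 6 pools: left, mean RPKM as bars with the mean without the highest nucleus as a black dash; right, percent of nuclei with Pdgfc above 0 as circles with exact 95% intervals, and the expected percent after thinning to 33134 reads as triangles. In each pair the red bar, labelled Ehmt1Δ/+, exceeds the blue one, at 3.40 against 0.893, 2.01 against 0.354 and 2.56 against 0.193 RPKM.

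The feedback genes showed no such steady difference in oligodendrocytes. In the 96-well plates Spry2, Etv5, Dusp6 and Spred2 were all lower in the pool labelled Ehmt1Δ/+ by over 2-fold. Spry2 was 8.58 against 2.14 RPKM (30 of 73 and 10 of 71 nuclei positive), Etv5 3.82 against 0.797 (26 and 7), Spred2 3.28 against 1.42 (30 and 14) and Dusp6 1.39 against 0.320 (13 and 2). Of 20177 genes with enough positive nuclei in this pair, 7.68% were over 2-fold lower and 3.99% over 2-fold higher. Etv5 and Dusp6 were among them only through the WT pool, and nothing is read from these shares about the 8 genes. Spred1 was level, at 20.96 and 21.7 RPKM. Spry1 (0.500 and 1.11 RPKM, 7 positive nuclei in each) and Spry4 (0.784 and 0.269 RPKM, 2 and 1) were too rarely detected to enter.

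In the 384-well plates the pattern did not repeat. Spry2 was again lower in Ehmt1Δ/+ without Cre (9.31 against 1.40 RPKM, 10 of 69 and 2 of 46 nuclei), but higher in Ehmt1Δ/+; Ehmt1 iTg than in Ehmt1 iTg (2.87 against 11.3 RPKM, 9 of 71 and 15 of 67). Etv5 was 0.705 against 1.58 RPKM and 0.824 against 1.39 RPKM, from 5, 3, 2 and 5 positive nuclei, so that both 384-well pairs went the opposite way to the 96-well pair. Spred2 was 1.38 against 2.55 RPKM and 2.24 against 2.25 RPKM. Dusp6 was listed at 0 in both pools with the WT allele and rested on 1 nucleus in each labelled pool. In those pools a share of up to 4.35% and 4.23% of nuclei could go unseen. Hence each of these 4 genes had both signs among the 3 pairs, although Spred2 was level in the pair with Cre.

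**Figure D4:**
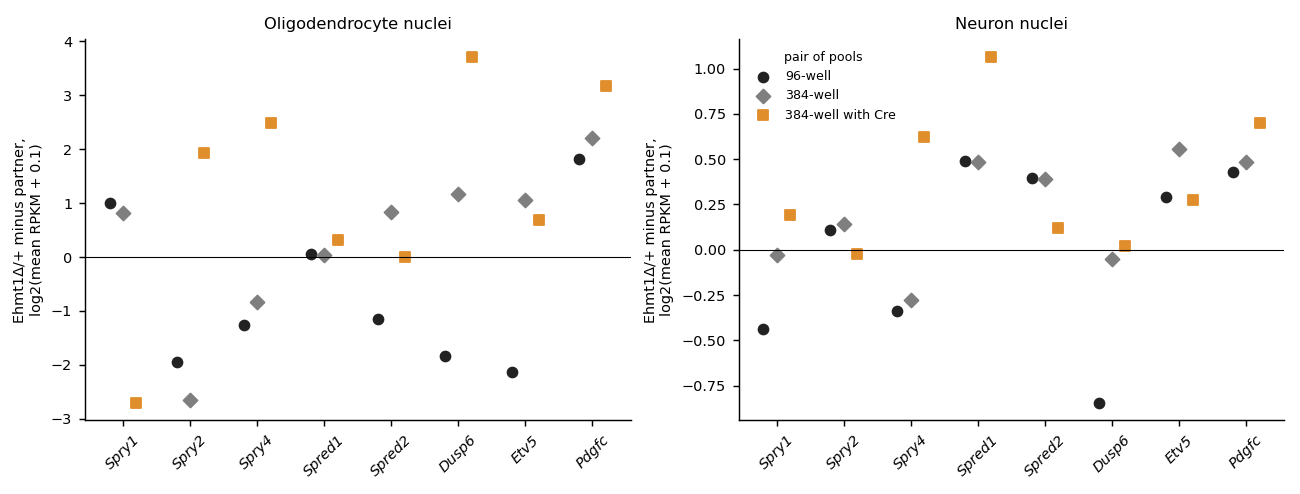
Difference between the pool labelled Ehmt1Δ/+ and its partner on the scale of log2(mean RPKM + 0.1) (vertical axis) for the 8 genes (horizontal axis) in oligodendrocytes (left) and neurons (right), 1 symbol a pair of pools. In oligodendrocytes only Pdgfc and Spred1 have all 3 symbols above 0, and Spred1 reaches 0.31 at most; in neurons Spred1, Spred2, Etv5 and Pdgfc have all 3 symbols above 0, before the shift of the median gene with Cre is taken into account.

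Neuronal RNA in the oligodendrocyte nuclei also differed between the pools. The summed level of 8 neuron markers in nuclei labelled oligodendrocyte was 102.6 RPKM in WT and 26.6 RPKM in Ehmt1Δ/+ of the 96-well plates. It was 12 against 7.63 RPKM in the 384-well plates and 11.5 against 21.5 RPKM with Cre. Spry2 had the same direction as the markers in each pair. Etv5, Spred2 and Dusp6 had the direction of the markers in the 96-well plates. With Cre, Etv5 and Dusp6 again had it and Spred2 was level. In the 384-well plates without Cre, Etv5, Spred2 and Dusp6 were higher in Ehmt1Δ/+, opposite to the markers. There Etv5 rested on 5 and 3 positive nuclei, and Dusp6 on 1 in Ehmt1Δ/+. All 8 markers were above 0 in every pool except Gad2, which was at 0 in the WT 384-well pool. Snap25, a synaptic vesicle fusion protein, was 41.3 against 8.88, 3.93 against 1.304 and 0.651 against 5.41 RPKM. In the WT 96-well oligodendrocytes the neuron markers stood at 20.96% of their level in the neurons of that pool; Etv5 stood at 18.7%, Dusp6 at 21.3% and Spred2 at 22.6%. In the Ehmt1Δ/+ 96-well oligodendrocytes the markers stood at 6.06%, Etv5 at 3.19%, Dusp6 at 8.89% and Spred2 at 7.41%.

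In oligodendrocytes of the WT 384-well pool Spry2 reached 59.3% of the neuron level where the neuron markers reached 2.68%, and in the 96-well WT pool 71.01% where they reached 20.96%. Pdgfc was at 148.5%, 197.9% and 265.1% of its neuron level in the pools labelled Ehmt1Δ/+ and at 53.2%, 50.8% and 34.8% in their partners. Among oligodendrocytes with neither Slc17a7 nor Gad1 above 0, which were 17 of 73 and 31 of 71 nuclei in the 96-well pools, Pdgfc was 1.44 against 3.96 RPKM, Spry2 5.22 against 2.75, Etv5 3.38 against 0.517, Spred2 1.88 against 1.498 and Dusp6 0.534 against 0. Few of them were positive: 4 and 11 for Pdgfc, 3 and 5 for Spry2, 5 and 1 for Etv5, 4 and 5 for Spred2, 2 and 0 for Dusp6. In the 384-well pools nuclei with neither marker had Pdgfc at 0.470 against 1.92 RPKM and at 0.269 against 1.40 RPKM. Pdgfc was positive in 5 of 52 and 4 of 37 of them without Cre and in 3 of 51 and 7 of 43 with Cre. Spry2 was in the nuclei with neither marker at 11.02 against 1.74 RPKM without Cre and at 2.73 against 7.54 RPKM with Cre. These Spry2 means came from 7, 2, 7 and 7 positive nuclei. The part of neuronal RNA in the differences of these genes was not tested.

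**Figure D5:**
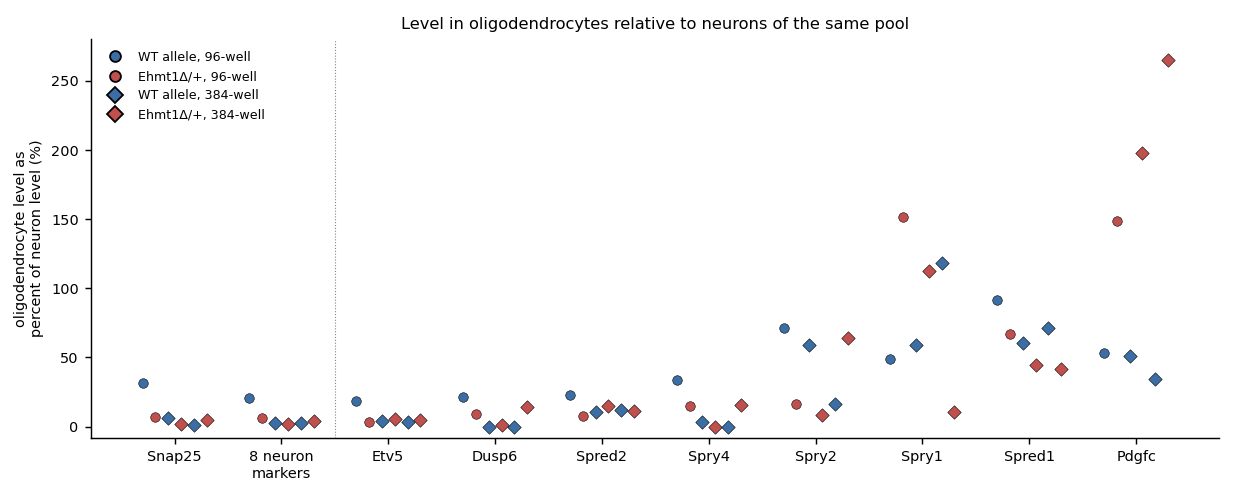
Level in oligodendrocytes as a percent of the level in neurons of the same pool (vertical axis) for Snap25, the sum of 8 neuron markers and the 8 genes (horizontal axis), circles for 96-well and diamonds for 384-well plates, blue for the WT allele and red for pools labelled Ehmt1Δ/+. The WT 96-well pool stands highest for Snap25 (31.7%), the markers (20.96%), Etv5, Dusp6, Spred2, Spry2, Spry4 and Spred1, and Pdgfc passes 100% in the 3 red pools only.

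Detection of several feedback genes in the same nucleus is given as a description. It was not compared with what the share of each gene alone would give. Of the 7 genes without Pdgfc, a neuron had 4.79 to 5.14 above 0 on average in the 6 pools and at least 3 of them in 94.5 to 98.9% of nuclei. An oligodendrocyte had 2.37 in WT and 1.44 in Ehmt1Δ/+ of the 96-well plates and 0.674 to 1.07 in the 384-well plates, where reads per nucleus were fewer. A microglial nucleus had 3.97 and 4.06 in the 96-well pools and 1.53 to 2.48 in the 384-well pools. Spry2 and Etv5 were found together in 10 of 73 WT and 0 of 71 Ehmt1Δ/+ oligodendrocytes of the 96-well plates. In these pools 30 and 10 nuclei held Spry2, and 26 and 7 held Etv5. Each gene alone was thus rarer in Ehmt1Δ/+, and nothing is read from the joint counts. In the 384-well plates the 2 genes were found together in 0 of 69, 0 of 46, 2 of 71 and 3 of 67.

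In neurons the labelled pools differed less, and Etv5, Spred1, Spred2 and Pdgfc were higher in the labelled pool of all 3 pairs. The share of all genes that were so was not counted, and nothing is read from the number of genes. Etv5 was 20.5 against 25.02, 18.8 against 27.6 and 24.1 against 29.2 RPKM; the 3 labelled pools all lay above the others, as did 1.76% of 23490 genes, a share from which nothing is read, since Etv5 was selected on these levels. Spred1 was 22.9 against 32.2, 5.47 against 7.69 and 6.58 against 13.9 RPKM, ratios of 1.41, 1.41 and 2.11. Spred2 was 14.5 against 19.2, 12.9 against 16.9 and 18.1 against 19.7 RPKM, and Pdgfc 1.68 against 2.29, 0.697 against 1.01 and 0.555 against 0.966 RPKM. With Cre the median gene itself was higher in Ehmt1Δ/+; Ehmt1 iTg by 0.22 on the log2 scale, above the Spred2 difference of 0.12 and close to the Etv5 difference of 0.27. Dusp6 was 6.55 against 3.60 RPKM in the 96-well plates but 10 against 9.64 and 8.43 against 8.56 RPKM in the others, and Spry2 differed by at most 0.14 on the log2 scale in any pair.

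These neuron values stood beside a difference in neuron class. Excitatory nuclei were 75.5% against 83.02%, 73.7% against 82.7% and 80% against 82.1% of neurons, more in the labelled pool each time. Within excitatory nuclei alone Etv5 was 23.3 against 27.5, 21.7 against 30.6 and 25.9 against 32.6 RPKM, and Spred1 24.5 against 34.5, 6.15 against 8.26 and 7.06 against 15.2 RPKM, so both kept their direction. Within inhibitory nuclei Spred1 was again higher in each labelled pool (18.0 against 21.7, 3.64 against 4.98 and 4.44 against 7.84 RPKM), while Etv5 was higher in 2 of 3 pairs. Spred2 and Pdgfc were higher in each labelled pool within excitatory nuclei only. In inhibitory nuclei Spred2 differed by -0.02, 0.11 and -0.01 on the log2 scale, and Pdgfc was lower in each labelled pool. Spred1 also differed by plate format, in tables normalized separately: WT means in 96-well plates exceeded those in 384-well plates 6.33-fold in oligodendrocytes and 4.19-fold in neurons. Of all genes, 7.58% and 2.61% were over 4-fold higher in the 96-well plates in both genotypes of these cell types, and the median gene was higher there by 0.47 and 0.31 on the log2 scale.

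In microglia, with 16 to 36 nuclei a pool, Dusp6 was 79.01 against 102.4, 73.7 against 41.6 and 48.99 against 60.4 RPKM, and Etv5 21.8 against 23.7, 23.04 against 32.7 and 5.91 against 13.4 RPKM. Spry1 was lower in each labelled pool (5.41 against 3.67, 2.04 against 0.152 and 3.51 against 2.10 RPKM), but the 384-well means rested on 1 or 2 positive nuclei a pool. Neuronal RNA differed between the pools in microglia too. The 8 neuron markers summed to 124.1 against 34.42, 13.31 against 12.11 and 3.64 against 22.78 RPKM. In WT and Ehmt1Δ/+ microglia of the 96-well plates the markers stood at 25.4% and 7.84% of their level in neurons. Spry2, at 2.91 and 0.859 RPKM there, stood at 24.1% and 6.60% of its level in neurons. The part of neuronal RNA in these microglia values was not tested.

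The fits across all genes called no gene for genotype in any cell type. In oligodendrocytes limma on the 3 pairs called 0 of 14139 genes at an adjusted p of 0.05, or 0.0%, with 664 at an unadjusted p under 0.05. On the 4 pools without Cre it called 0 of 12907 (589 unadjusted), and on the 4 pools of the 384-well plates 0 of 14257 (749 unadjusted). In neurons 0 of 23941 genes were called without Cre (2400 unadjusted) and 0 of 24992 in the 384-well plates (697 unadjusted). In microglia the counts were 0 of 13966 (1.76% unadjusted), 0 of 15923 (878) and 0 of 15530 on the 3 pairs (527). These fits had 1 or 2 residual degrees of freedom.

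Around these genes, 64 further genes of the pathway were listed by role. Of 22 receptors and ligands 13 could be tested in oligodendrocytes over the 3 pairs, of 22 members of the cascade 22, and of 20 other feedback and ERK target genes 8, and 0 passed in either direction. Their median log2 differences were -0.12, 0.10 and 0.07, against 0.04 for all genes. The receptors most abundant in oligodendrocytes were Erbb3, a neuregulin receptor, at 59.9, 82.1, 108.9, 146.2, 133.8 and 98.4 RPKM, Fgfr2 at 59.99 to 88.2 RPKM and Insr, the insulin receptor, at 17.3 to 24.4 RPKM. Erbb3 thus had the labelled pool above its partner in 2 pairs and below it in the third. Pdgfra and Pdgfrb, which bind PDGF-C, were at 0 to 0.185 and 0 to 0.0641 RPKM in oligodendrocytes. Of the cascade, the adaptor Gab1 was at 60.6 to 89.2, the scaffold Ksr1 at 18.3 to 60.4 and the phosphatase Ptpn11 at 36.7 to 62.2 RPKM. Of the other feedback genes, Dusp7, an ERK phosphatase, was at 12.8 to 27.03, Errfi1, an inhibitor of EGF receptors, at 15.4 to 33.4 and Lrig1 at 3.26 to 6.01 RPKM, so these were more abundant in oligodendrocytes than Dusp6 and Spry4 in every pool.

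In oligodendrocytes against neurons 38.6% of all 26240 genes tested were lower and 12.5% higher at an adjusted p of 0.05. Of the 18 other feedback and target genes tested 10 were lower and 2 higher, with a median log2 difference of -2.31 against -0.61 for all genes; of the receptors and ligands 8 of 18 were lower and 6 higher, and of the cascade 5 of 22 lower and 6 higher, with medians of -0.05 and 0.16. In excitatory against inhibitory neurons, where 4930 of all 25936 genes were higher and 5460 lower, 7 of 18 other feedback and target genes were higher and 1 lower, 3 of 18 receptors and ligands higher and 7 lower, and 0 of 22 cascade genes higher and 12 lower.

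Likeness was measured as Pearson's r over the 18 pool and cell type means, which share libraries and depth, and is a description. Spry2 was most like Arl3 (0.96) and Scg5 (0.96), Spry4 like Scrt2 (0.98) and Efna3 (0.98), Dusp6 like Tbc1d9 (0.98) and Rgs19 (0.97), Etv5 like Abr (0.97) and Inpp4a (0.97), and Spred2 like Ncs1 (0.97) and Adcy8 (0.96). Spred1 was most like Fubp1 (0.96) and Usp34 (0.96), Pdgfc like Naaladl2 (0.96) and Dpyd (0.94), and Spry1 like Trcg1 (0.80) and Ddx19a (0.78). Among the 8 genes themselves the closest pair was Etv5 and Spred2 (0.88), followed by Dusp6 and Etv5 (0.83) and Spry2 and Spry4 (0.81).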

How the data were processed

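The authors sorted single nuclei, prepared RamDA-seq libraries, trimmed reads with Fastq-mcf, mapped them to mm10 with HISAT2 2.0.4 and counted reads per gene with featureCounts of Subread 1.5.0 and a GENCODE annotation, and assigned cell types from clusters and marker genes; the RPKM values they deposited, in 1 table per plate format, were used here as they stand. Counting is not stated to use strand. Reads of Spry1, Spry4 and Pdgfc therefore cannot be told from those of overlapping genes on the opposite strand. These are Gm42922 for Spry1, Gm27369 and Gm27804 for Spry4 and Gm16000 for Pdgfc. Gene names came from GENCODE M21 by identifier; 52403 of 52636 matched.

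For each pool and cell type the mean RPKM of its nuclei was taken, and limma 3.58.1 (R 4.3.3) was fitted to log2(mean + 0.1), with p-values adjusted by Benjamini-Hochberg across every gene that passed the filter: a share of positive nuclei of 10% or more in some pool of each plate format. The files hold RPKM, so a count test was not used. The pool was the unit, and p-values measure the spread between pools. The fits were of genotype (plate format, pair or Cre as covariate), cell type and neuron class (pool as block). Read totals came from the steps of the RPKM values; counts of nuclei have exact Clopper-Pearson 95% intervals, and a share of 0 was given the limit of 3 nuclei. Thinned shares are expected values. The fits were tested on simulated data. Named genes were the 8 genes, the 3 most abundant of each pathway list in oligodendrocytes of the pools with the WT allele, Pdgfra and Pdgfrb, the 2 genes most like each of the 8, Ehmt1 and cell type markers; Dcn, Lum and Gad2 were named because they were at 0. The genes, lists and rules were chosen with earlier results of these data known. Sequences are from RefSeq (GRCm38.p6); 7 of the 8 genes were used, and Spry4 was not.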

Additional observations from a re-analysis of the deposited data

Results flagged for a closer look

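Etv5 and Dusp6 had opposite directions in oligodendrocytes of the plate formats. Spred2 had opposite directions in the pairs without Cre and was level with Cre. On the scale of log2(mean RPKM + 0.1), the pool labelled Ehmt1Δ/+ minus its partner was -2.13 for Etv5 in the 96-well plates but 1.06 and 0.69 in the 384-well pairs without and with Cre. For Dusp6 the differences were -1.83, 1.16 and 3.72, of which the last 2 rest on 1 positive nucleus each against pools listed at 0. For Spred2 they were -1.15, 0.84 and 0.0035. In oligodendrocytes of the pair with Cre the median gene itself was higher in the labelled pool by 0.21. The difference between plate formats was not tested.

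Pdgfc went opposite ways in the neuron classes in every pair. In excitatory neurons the labelled pool was higher by 0.42 in the first (96-well), 0.48 in the second and 0.84 in the last pair, whereas in inhibitory neurons the differences were -0.49, -1.04 and -1.06. The inhibitory means were 0.916 against 0.624, 0.304 against 0.0959 and 0.339 against 0.110 RPKM, from 43 to 73 nuclei a pool. Few of these nuclei were positive: 29.03% against 11.6%, 15.07% against 7.69% and 15.09% against 10%. The labelled means of the second and last pairs lay near the 0.1 RPKM added before taking log2. The difference between the classes was not tested.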

How the results depend on the processing

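No paired analysis was possible because the replicate numbers name nuclei, not animals, and pair no samples between pools; the pair of pools, the plate format or the pool entered the fits from the labels. Genotype fits called 0 genes except in these cases. With log2 values averaged per nucleus, 2 genes were higher in oligodendrocytes without Cre, 13 higher and 1 lower in the 384-well oligodendrocytes, and 4 higher and 2 lower in microglia without Cre. With a trended prior 2 were higher in oligodendrocytes without Cre and 1 over the 3 pairs. Centred on the median gene, 36 were higher and 39 lower in 384-well neurons. Leaving out the neurons with Pdgfra above 100 RPKM, a choice made after seeing the data, left 0 genes called (2424 unadjusted). Oligodendrocytes against neurons had 3277 genes higher and 10123 lower, which became 1798 and 19715 with log2 values averaged per nucleus, 8293 and 6536 after centring, and 15807 lower without the filter. Microglia against neurons had 5038 higher and 11711 lower, which became 2724 and 19015 per nucleus, 9507 higher after centring, and 17995 lower without the filter.

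After centring, the oligodendrocyte minus neuron difference turned to 0.41 for Spry1, 0.25 for Spred1 and 0.96 for Pdgfc, and the microglia minus neuron difference to 0.51 for Spred1 and 0.63 for Etv5. With log2 values averaged per nucleus, Spred1 turned to 0.068 in oligodendrocytes minus microglia and Spry1 to -0.18 in microglia minus neurons. Pdgfc in oligodendrocytes minus neurons, at -0.00, turned to 0.11 with a pseudocount of 1 and was -0.59 with log2 values averaged per nucleus. It ranged from -0.27 to 0.23 with 1 pool left out. Centring, on the median gene of each pool and cell type, shifts every difference of a comparison alike; the other causes were not tested. The excitatory and inhibitory calls kept their direction and side of the threshold in 11 alternatives each. The 384-well oligodendrocytes and microglia hold few reads, which limits shares and levels there.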
